A study of Mus musculus with 4 samples.

Results

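The 43 genes described here encode the scaffold of the sarcomere and its Z-disc. They are the rows of the authors' gene table whose symbol stood in a fixed list, and all 43 were found among its 48432 gene rows. RNA was sequenced from isolated cardiomyocytes, the contractile cells of the heart, of mice with a C57BL x FVB background. The MHC control group (2 libraries) carried the genotype labelled MHC, and the Rbfox2 OE group (2 libraries) overexpressed RBFOX2 (its non-muscle isoform, according to the series title), which binds RNA and steers alternative splicing. Both groups had been fed doxycycline for 3 days. The labels give neither the promoter that drives the overexpression nor the age or sex of the mice, they do not say whether the libraries came from separate animals, and the series as a whole concerns conduction defects in myotonic dystrophy.

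A sarcomere is the repeating contractile unit of striated muscle. Thick filaments of myosin are held at the M-band, thin filaments of actin are anchored at the Z-disc by alpha-actinin, and titin runs between the Z-disc and the M-band. Around this frame sit proteins that fold and replace its parts and proteins that carry mechanical signals from the Z-disc to the nucleus. Inherited defects in many of them cause cardiomyopathy.

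The authors deposited 1 pooled value per gene and group in FPKM, a level per length of transcript and per sequenced fragment of a library, with a lower and an upper bound whose level is not stated. A range in parentheses after an FPKM value gives these bounds. The spread between libraries is therefore not known and no test between the groups was possible. A pair of descriptions was used: a difference of at least 2-fold on the log2(FPKM + 1) scale, and bounds of the 2 groups that do not overlap. All 43 genes had the status OK in both groups and a mean above 1 FPKM. Rbfox2 itself stood at 14.7 FPKM in MHC cells against 293 FPKM in Rbfox2 OE. Of 12 cardiomyocyte markers outside the 43, Myh6 and Mb in both groups and Atp2a2 in MHC were listed at 0 with the status HIDATA, which Cuffdiff gives to loci with too many fragments. Of the 9 measured in both groups, 8 had the lower value in Rbfox2 OE and 1, Nkx2-5, the higher (49.8 against 61.4 FPKM). Bounds were separate for Actc1, Tnni3, Ryr2 and Pln, all lower, and overlapped for the other 5, including the most abundant, Myl2 (24688 against 18007 FPKM). In such bulk RNA, fewer cardiomyocytes and less RNA per cardiomyocyte cannot be told apart.

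The scaffold genes were lower in Rbfox2 OE more often than higher, and unevenly so. Of the 43 genes, 13 (30.2%) were at least 2-fold lower in Rbfox2 OE, against 10% of the 11697 genes compared (mean of 1 FPKM or more), and 2 (4.65%) were at least 2-fold higher, against 6.97% of all genes. Bounds were separate with the lower value in Rbfox2 OE for 14 of the 43 (32.6%; 9.33% of all genes) and with the higher value for 3 (6.98%; 6.67% of all genes), the latter being near the background. Both descriptions held for 10 genes that were lower (7.42% of all genes) and for 2 that were higher (5.27% of all genes). The log2 ratio was below 0 for 33 of the 43 (76.7%; 53.8% of all genes). The median log2 ratio over the 43 was -0.59, beside -0.06 over all genes, and single genes ranged from -2.97 to 1.09. Since every one of the 43 had a mean above 10 FPKM, the same counts were also set against the 5142 genes above that level, of which 13.1% lay 2-fold lower and 6.26% 2-fold higher, and 11.5% and 5.76% had separate bounds in these directions.

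**Figure D1:**
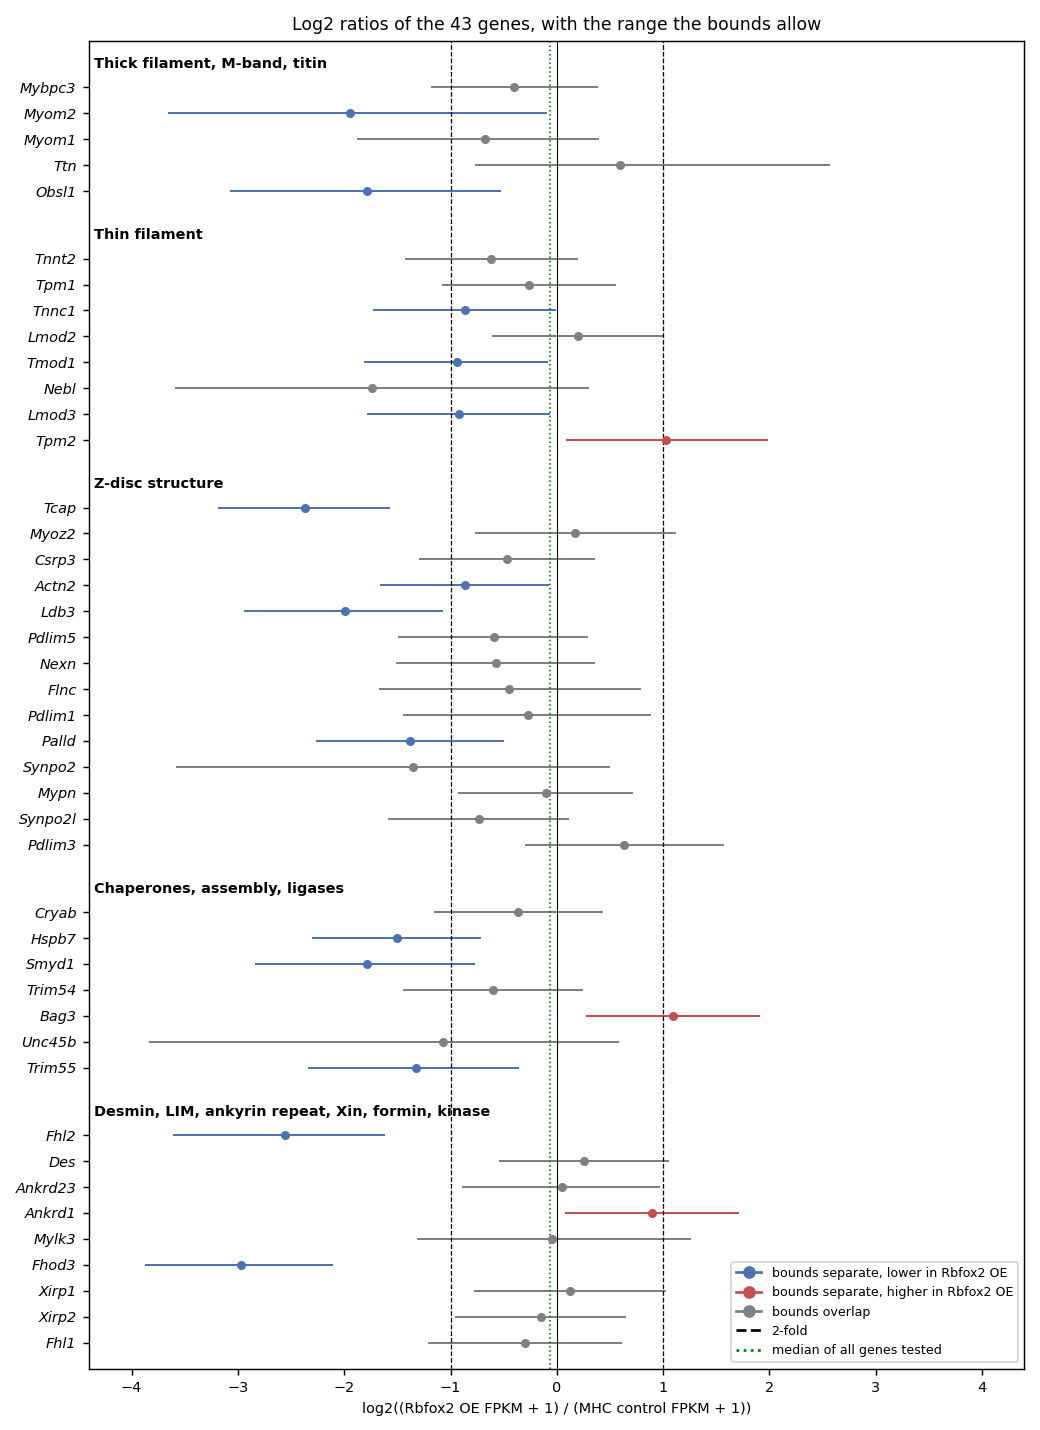
Log2 ratio (Rbfox2 OE over MHC) for each of the 43 genes, computed with 1 FPKM added, by role. Bars run between the lowest and highest ratio that the authors' bounds allow. Blue marks the 14 genes with separate bounds that were lower in Rbfox2 OE, red the 3 that were higher and grey the 26 with overlapping bounds, and the largest differences are those of Fhod3, Fhl2 and Tcap.

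The size of these counts rests in part on how the groups are scaled. When the groups were put on a common total that leaves out mitochondrial transcripts and the top 10 genes of either group, Rbfox2 OE was raised by 0.15 (log2), and the median of all genes went from -0.06 to 0.07. The members' median then was -0.44, with 12 genes 2-fold lower (7.83% of all genes) and 3 higher (9.02% of all genes). Separate bounds were then left for 9 lower genes (7.05% of all genes) and 3 higher ones (8.69% of all genes), and 30 ratios lay below 0 (69.8%; 45.4% of all genes). The lower genes that lost separate bounds were Myom2, Tmod1, Lmod3, Tnnc1 and Actn2. The gene that reached 2-fold higher was Ankrd1, and the one that no longer reached 2-fold lower was Unc45b.

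The 43 genes together summed to 40651 FPKM in the control and to 27344 FPKM in Rbfox2 OE, which was 7.93% and 6.12% of the FPKM of all genes in the table. These totals leave out genes with the status HIDATA, 30 in MHC and 26 in Rbfox2 OE, and without the 30 genes so marked in either group the shares were 7.93% and 6.13%. Their levels spanned a wide range. Tnnt2 and Tpm1 made up 44.2% of the members' sum in MHC cells, against 47.9% in Rbfox2 OE. The median member stood at 226 FPKM in MHC cells against 141 FPKM in Rbfox2 OE. When the members were ordered by level, bounds were separate for 2 of the 42 neighbouring pairs in the control and for 1 of 42 in Rbfox2 OE, so that the order is only coarse. Tnnt2, Tpm1 and Tnnc1 held the first 3 places in both groups. Tcap moved from place 4 to 12 and Fhl2 from 10 to 22, Fhod3 moved from 28 to 42, and Bag3 moved up from 26 to 15.

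**Figure D2:**
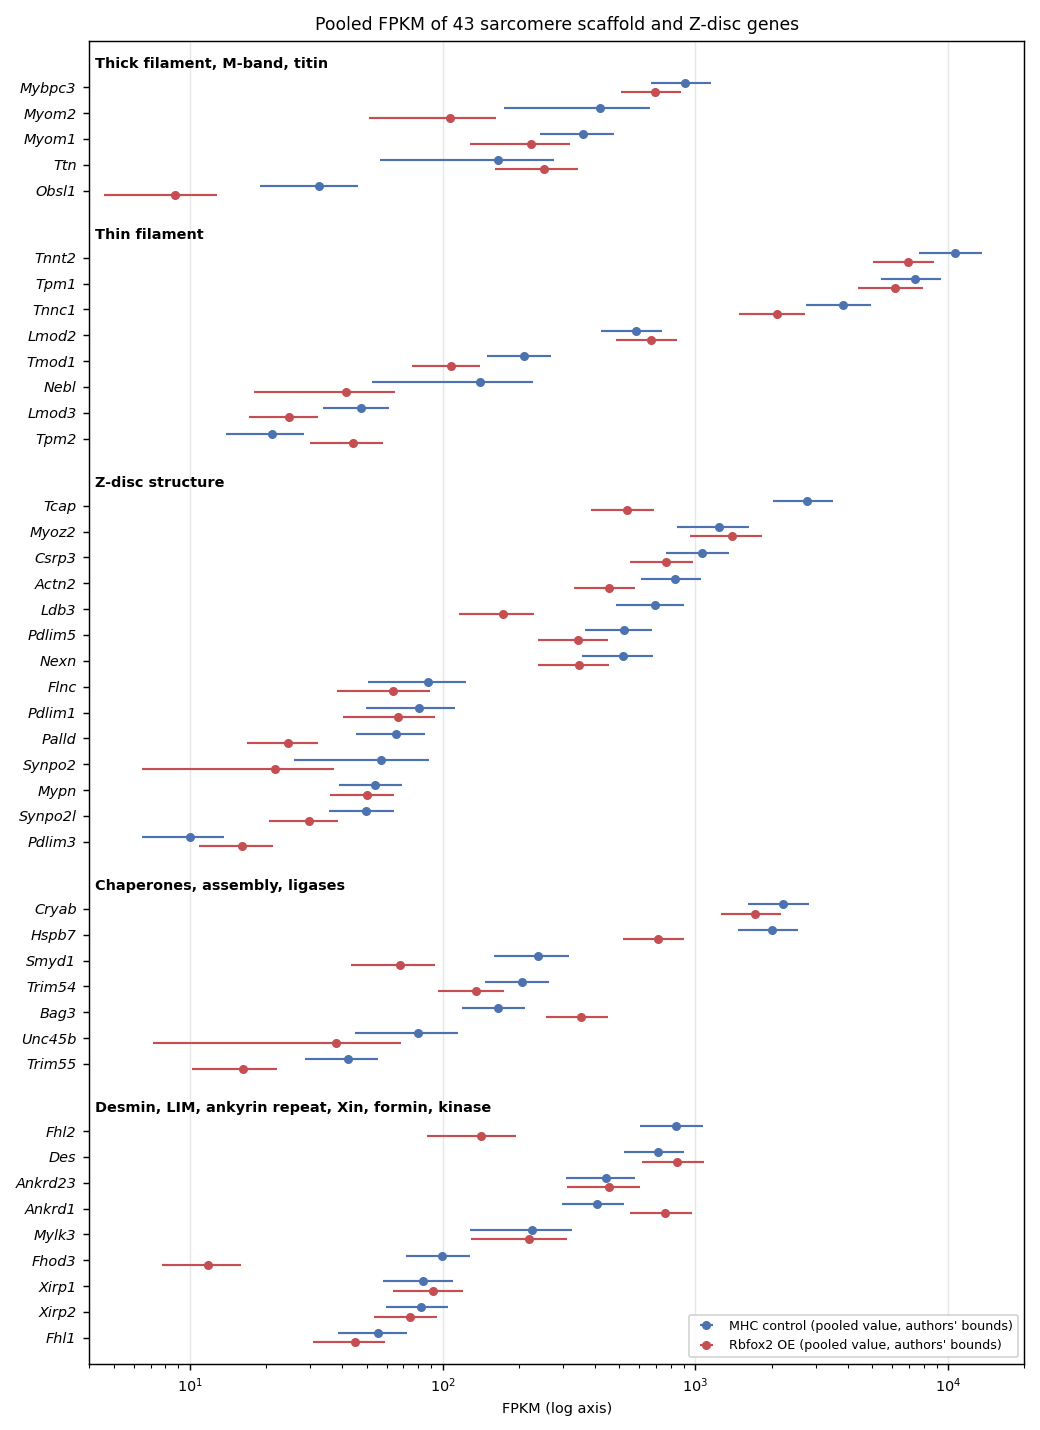
Pooled FPKM of the 43 genes on a log axis, by role, in the MHC control (blue) and in Rbfox2 OE (red). Bars are the authors' lower and upper bounds. Tnnt2, Tpm1 and Tnnc1 lie highest in both groups, and the bars of Fhod3, Fhl2, Tcap and Ldb3 lie clearly apart.

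Among the 5 genes of titin, the thick filament and the M-band, Myom2 and Obsl1 were at least 2-fold lower, both with separate bounds, and the median log2 ratio was -0.68. Myom2, the myomesin that cross-links myosin at the M-band of fast and cardiac fibres, stood at 417 FPKM (175 to 660) in MHC cells against 107 FPKM (51.3 to 163) in Rbfox2 OE, a log2 ratio of -1.95. Obsl1, the obscurin-like protein that binds myomesin and titin, stood at 32.5 FPKM (18.9 to 46.1) against 8.73 FPKM (4.59 to 12.9), 3.72-fold lower. For both genes the groups did not overlap, although for Myom2 the gap was narrow. Myom1, the broadly expressed myomesin, stood at 359 FPKM (242 to 476) in MHC cells against 224 FPKM (128 to 320) in Rbfox2 OE, with overlap. Mybpc3, the cardiac myosin-binding protein C, stood at 912 and 692 FPKM, a log2 ratio of -0.40 with overlapping bounds. Ttn, the giant elastic protein titin, was the single gene of this group with a higher value in Rbfox2 OE, at 252 FPKM (161 to 343) against 166 FPKM (56.8 to 275). Its bounds overlapped widely, the log2 ratio of 0.60 lying between -0.77 and 2.57 by the bounds.

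Of the 8 thin filament genes 1 was at least 2-fold lower and 1 higher, bounds were separate for 3 lower and 1 higher, and the median log2 ratio was -0.74. The abundant structural genes differed by less than 2-fold. Tnnt2, cardiac troponin T, stood at 10609 FPKM (7635 to 13583) in MHC cells against 6917 FPKM (5039 to 8795) in Rbfox2 OE, and Tpm1, the main cardiac tropomyosin, at 7378 FPKM (5394 to 9362) and 6174 FPKM (4413 to 7935). Both pairs of bounds overlapped. Tnnc1, the calcium-binding subunit of troponin, stood at 3838 FPKM (2728 to 4948) against 2104 FPKM (1488 to 2721), so that the bounds missed each other by a few FPKM. The genes that set the length of the thin filament split. Tmod1, which caps the pointed end, stood at 209 FPKM (149 to 269) against 108 FPKM (75.7 to 141), 1.93-fold lower with separate bounds. Lmod3, a leiomodin that promotes filament growth, was also 1.93-fold lower, at 47.6 FPKM (33.6 to 61.6) against 24.7 FPKM (17.2 to 32.1). Lmod2, the main cardiac leiomodin, stood instead at 581 FPKM (423 to 739) in MHC cells against 665 FPKM (484 to 847) in Rbfox2 OE, with overlap. Nebl, the nebulette that anchors thin filaments at the Z-disc, was 3.38-fold lower, at 140 against 41.4 FPKM, but its bounds were wide (52.4 to 228 against 17.99 to 64.9) and overlapped. Tpm2, a tropomyosin more typical of slow skeletal and smooth muscle, was the 1 thin filament gene that was 2-fold higher, at 21.1 FPKM (13.9 to 28.2) against 44.1 FPKM (30.0 to 58.2).

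Of the 14 Z-disc genes 4 were at least 2-fold lower and 0 higher, bounds were separate for 4 lower and 0 higher, and the median log2 ratio was -0.59. Tcap, the cap that joins the ends of titin molecules at the Z-disc, stood at 2774 FPKM (2033 to 3515) in MHC cells against 535 FPKM (385 to 685) in Rbfox2 OE, 5.18-fold lower. Ldb3, known as Cypher or ZASP, which binds alpha-actinin and stabilises the Z-disc, stood at 692 FPKM (486 to 898) against 173 FPKM (116 to 230), a log2 ratio of -1.99. Palld, the actin-bundling palladin, stood at 65.2 FPKM (45.5 to 84.9) against 24.5 FPKM (16.9 to 32.1). The groups were far apart for Tcap and Ldb3 and clearly apart for Palld. Actn2, the sarcomeric alpha-actinin that cross-links actin at the Z-disc, was 1.82-fold lower, at 830 FPKM (608 to 1053) against 455 FPKM (331 to 579), with bounds that were just separate.

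The remaining 10 genes of the Z-disc group had overlapping bounds. Synpo2, the actin-binding myopodin, was 2.62-fold lower, at 57.1 FPKM (25.9 to 88.3) against 21.8 FPKM (6.44 to 37.1). Its relative Synpo2l stood at 49.7 FPKM (35.5 to 64.0) and 29.6 FPKM (20.6 to 38.6). Csrp3, the muscle LIM protein, stood at 1060 and 768 FPKM. The PDZ and LIM domain proteins bind alpha-actinin, and of these Pdlim5 stood at 520 FPKM (367 to 673) and 344 FPKM (238 to 450). Pdlim1 stood at 80.8 FPKM (49.9 to 112) and 66.8 FPKM (40.4 to 93.2), a less certain value, since 19.8% of the 50-base sequences of its transcript occur in other gene models. The least abundant member of the group, Pdlim3, had the higher value in Rbfox2 OE, at 10.05 FPKM (6.46 to 13.6) in MHC cells against 16.1 FPKM (10.9 to 21.3) in Rbfox2 OE. Nexn, the actin-binding nexilin, stood at 516 and 346 FPKM. Flnc, the muscle filamin, stood at 87.5 and 63.6 FPKM. Mypn, the myopalladin that links alpha-actinin to nebulette, stood at 54 FPKM (38.8 to 69.3) and 50.1 FPKM (35.8 to 64.5), and the sign of its log2 ratio of -0.11 turned to 0.04 on rescaling. Myoz2, calsarcin-1, which tethers calcineurin to the Z-disc, stood at 1236 and 1396 FPKM.

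The promoter of Ldb3 is shown because Ldb3 is among the genes with the widest gap between the bounds. It was taken, like those below, from RefSeq on GRCm38.p6, and covers 250 bases before and 50 after a transcription start. Capitals mark the motifs that were searched on both strands, in this promoter a CArG box, the binding motif of serum response factor, that begins 35 bases before the start (chr14:34588632-34588931, minus strand).
Ldb3 promoter: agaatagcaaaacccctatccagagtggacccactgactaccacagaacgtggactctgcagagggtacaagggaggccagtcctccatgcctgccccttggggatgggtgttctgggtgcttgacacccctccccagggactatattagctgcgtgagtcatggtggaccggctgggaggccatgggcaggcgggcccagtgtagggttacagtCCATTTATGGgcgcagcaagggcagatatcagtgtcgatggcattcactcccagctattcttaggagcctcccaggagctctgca

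Of the 7 genes for folding, assembly and turnover 4 were at least 2-fold lower and 1 higher, bounds were separate for 3 lower and 1 higher, and the median log2 ratio was -1.07. Hspb7, a small heat shock protein of heart muscle, stood at 2015 FPKM (1477 to 2553) in MHC cells against 710 FPKM (516 to 903) in Rbfox2 OE. Smyd1, a muscle methyltransferase needed for sarcomere assembly, was 3.49-fold lower, at 238 FPKM (160 to 316) against 68.1 FPKM (43.3 to 93.0). Trim55, the ubiquitin ligase MuRF2, stood at 42.1 FPKM (28.6 to 55.7) against 16.2 FPKM (10.2 to 22.2). In all 3 genes the bounds were separate. Unc45b, the chaperone that folds myosin heads, stood at 80.1 against 37.7 FPKM, with a wide and overlapping interval of 7.13 to 68.3 FPKM in Rbfox2 OE. Cryab, alpha-B-crystallin, which protects desmin and titin from aggregation, stood at 2212 FPKM (1619 to 2806) and 1723 FPKM (1258 to 2188), and Trim54, MuRF3, at 206 FPKM (147 to 264) and 136 FPKM (96.1 to 175).

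Bag3 had the largest positive log2 ratio of the 43. This co-chaperone works with Hsp70 and small heat shock proteins to clear damaged filamin and other Z-disc proteins. It stood at 165 FPKM (119 to 212) in MHC cells against 353 FPKM (257 to 450) in Rbfox2 OE, 2.14-fold higher with separate bounds. Its promoter is printed for that reason (chr7:128523333-128523632, plus strand), and the capitals mark a match to the core heat shock element, GAANNTTC, that begins 43 bases into the transcribed part.
Bag3 promoter: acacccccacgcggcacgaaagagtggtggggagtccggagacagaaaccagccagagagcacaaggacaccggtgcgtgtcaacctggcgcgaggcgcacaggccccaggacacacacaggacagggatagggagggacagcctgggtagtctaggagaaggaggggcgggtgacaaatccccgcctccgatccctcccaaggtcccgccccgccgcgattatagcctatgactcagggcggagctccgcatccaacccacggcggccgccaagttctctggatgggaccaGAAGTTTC

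The last group holds desmin, LIM and ankyrin repeat proteins, the Xin proteins, a formin and a kinase, 9 genes in all. Of these 2 were at least 2-fold lower and 0 higher, and bounds were separate for 2 lower and 1 higher. Fhod3, the formin that builds and maintains cardiac thin filaments, had the lowest ratio of all 43 genes, at 99.9 FPKM (71.7 to 128) in MHC cells against 11.9 FPKM (7.78 to 15.9) in Rbfox2 OE, 8.42-fold lower. Fhl2, a LIM-only protein of heart muscle that binds titin and transcription factors, stood at 839 FPKM (603 to 1076) against 141 FPKM (87.0 to 196), 5.94-fold lower. These genes and Tcap were the 3 members at least 4-fold lower (1.32% of all genes). Ankrd1, the cardiac ankyrin repeat protein that binds titin and is induced by stretch, stood at 409 FPKM (296 to 521) against 760 FPKM (549 to 972), 1.86-fold higher with separate bounds. Des, the intermediate filament protein that ties Z-discs together, stood at 711 FPKM (520 to 902) and 848 FPKM (617 to 1078). Fhl1, the relative of Fhl2, stood at 55.5 FPKM (38.4 to 72.5) and 45 FPKM (30.7 to 59.4). The groups overlapped for both.

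The other 4 genes of this group had overlapping bounds and log2 ratios close to 0. Xirp1, a Xin protein that binds actin, stood at 84 FPKM (58.4 to 110) and 91.7 FPKM (63.4 to 120). Its relative Xirp2 stood at 82.2 FPKM (59.7 to 105) and 74.1 FPKM (53.6 to 94.6). Mylk3, the cardiac myosin light chain kinase, stood at 226 and 219 FPKM, and its log2 ratio of -0.05 changed sign under both other scalings. The ratio of Xirp2 (-0.15) also changed sign on rescaling. Ankrd23, a relative of Ankrd1, stood at 442 FPKM (308 to 576) and 457 FPKM (310 to 604). That value is uncertain, because 84.2% of the 50-base sequences of its transcript also occur in the overlapping gene model Gm42417, itself at 1.16 FPKM in MHC cells against 39.0 FPKM in Rbfox2 OE. The median log2 ratio of the group was -0.05 and became 0.11 on rescaling.

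The promoters of Fhl2 and Ankrd1 are set side by side because these genes lie on opposite sides. In Fhl2 (chr1:43196712-43197011, minus strand) the capitals mark a CArG box that begins 96 bases before the start, a GATA site (AGATAA, read on the other strand) and a MEF2 site that overlaps a TATA box (TATAAA, on the other strand). In Ankrd1 (chr19:36119795-36120094, minus strand) they mark 2 MCAT elements (CATTCC, the motif bound by TEAD factors, on the other strand), a heat shock element that overlaps the second of them by its first base, and a GATA site.
Fhl2 promoter: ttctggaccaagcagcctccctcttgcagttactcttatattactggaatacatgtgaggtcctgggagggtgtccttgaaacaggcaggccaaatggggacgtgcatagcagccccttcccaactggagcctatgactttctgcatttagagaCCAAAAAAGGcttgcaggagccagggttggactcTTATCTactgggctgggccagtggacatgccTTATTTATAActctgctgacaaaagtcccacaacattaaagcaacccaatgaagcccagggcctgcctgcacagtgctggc
Ankrd1 promoter: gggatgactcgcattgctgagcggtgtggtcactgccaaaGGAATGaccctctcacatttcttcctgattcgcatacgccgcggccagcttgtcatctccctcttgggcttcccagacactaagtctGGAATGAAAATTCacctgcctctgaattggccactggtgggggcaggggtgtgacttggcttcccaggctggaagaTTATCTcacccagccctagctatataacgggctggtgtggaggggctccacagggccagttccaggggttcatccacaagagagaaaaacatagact

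Over the members as a whole, the search in the promoter table covered 35 of 43, with 50 promoters, and left out 8, among them Fhod3. The MCAT element CATTCC was present in 34.0% of these promoters, beside 14.7% of all 32851 promoters in the table and 12.3% of the 11250 promoters of genes compared. A CArG box was present in 14.0%, beside 1.63% of all promoters and 1.30% of those of genes compared. For a MEF2 site the shares were 16.0%, beside 3.19% and 1.99%. The GATA site AGATAA was found in 16.0%, beside 11.2% and 6.55%, and the TATA box TATAAA in 14.0%, beside 13.6% and 7.51%. The heat shock element was found in 4 of the 50 promoters, beside 7.86% and 5.70%. Some genes have several overlapping promoters in the table, so these shares do not count independent sequences. Motifs were found in genes of both directions: the 15 genes with an MCAT element included Hspb7 and Palld, which were lower, Ankrd1, which was higher, and Tpm1, whose bounds overlapped. A match is a description of the letters and not evidence of binding.

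RBFOX proteins bind RNA at UGCAUG, written here with T. In the annotated 3′ untranslated regions this word was present in 15 of the 41 members that have one (36.6%), beside 31.9% of the 10955 genes compared that have one. Of the 13 members at least 2-fold lower, 8 held it (61.5%), and of the 28 others 7 did. Nebl, Synpo2 and Unc45b, which are among the 8, had overlapping bounds. The untranslated regions of the first set were also longer, with a median of 822 bases against 630. The share among all genes at least 2-fold lower was not computed, so that the 61.5% has no matching background. Within the 13, the median log2 ratio was -1.62 with the word and -1.95 without it. The corresponding medians were -1.07 and -0.53 over the 41 members, and -0.093 and -0.055 over all genes compared. The word occurred in genes of both directions, since Bag3 and Tpm2, the genes that were 2-fold higher, held it as well. The first such site of 4 genes that were lower and of these 2 is shown on GRCm38 with 6 bases on either side, the capitals marking the word.
Ldb3, chr14:34528373-34528390, minus strand: gaagaaTGCATGggctgc
Smyd1, chr6:71215053-71215070, minus strand: tgactgTGCATGcctgcc
Trim55, chr3:19691885-19691902, plus strand: gtgtggTGCATGcctgtg
Hspb7, chr4:141424625-141424642, plus strand: tgctggTGCATGaggcca
Bag3, chr7:128546426-128546443, plus strand: ttaagtTGCATGcactgc
Tpm2, chr4:43515497-43515514, minus strand: aatcaaTGCATGtggcta

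Ratios were also compared between related proteins. Among 13 pairs of related members, the log2 ratios of 7 lay at least 1 apart and those of 5 had opposite signs. The latter included Pdlim3 with Pdlim1 and with Pdlim5, and Xirp1 with Xirp2, genes whose bounds all overlapped between the groups. The corresponding counts for other gene pairs were not computed. On rescaling, Xirp1 with Xirp2 no longer had opposite signs and Mypn with Palld came to have them, so that the count was again 5. Since a share within a pair does not depend on the scaling of the groups, shares are given here. Fhl2 made up 93.8% of the summed FPKM of Fhl1 and Fhl2 in the control and 75.8% in Rbfox2 OE. Myom2 made up 53.7% of the sum with Myom1 in the control and 32.4% in Rbfox2 OE, where Myom1 had the higher pooled value. Bounds of Myom1 and Myom2 overlapped within MHC (242 to 476 and 175 to 660 FPKM). They also overlapped within Rbfox2 OE (128 to 320 and 51.3 to 163 FPKM), so the order of the pair is open in each group. The value of Myom1 is also less certain because of an overlapping gene, described below. Palld had 54.7% of the sum with Mypn in MHC and 32.8% in Rbfox2 OE. The bounds of Palld and Mypn overlapped in MHC, and in Rbfox2 OE Palld lay below Mypn with separate bounds. Ankrd1 had 48.1% of the sum with Ankrd23 in the control and 62.5% in Rbfox2 OE, subject to the uncertainty of Ankrd23. Hspb7 had 47.7% of the sum with Cryab in the control and 29.2% in Rbfox2 OE. Tpm2 remained a small part of the sum with Tpm1, at 0.285% and 0.709%. Bounds on a share were not computed, and no spread between libraries is available for it.

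The alpha-actinins, the filamins and the tropomyosins include forms found in many other cells. In these families the main cardiac form made up less of the sum in Rbfox2 OE. Actn2 was 95.0% of the summed FPKM of the 4 alpha-actinins in MHC cells, against 84.0% in Rbfox2 OE. The widely expressed Actn4 took 3.58% and 10.6%, and Actn1 took 1.44% and 5.39%. Flnc was 88.0% of the sum with Flna in MHC cells, against 66.9% in Rbfox2 OE. Of these other forms, Actn1 had separate bounds, at 12.6 against 29.2 FPKM, whereas Actn4 (31.3 against 57.6 FPKM) and Flna (11.9 against 31.4 FPKM) had overlapping ones. Tpm1 was 99.1% of the sum of the tropomyosins in MHC cells, against 97.4% in Rbfox2 OE. Tpm3 and Tpm4, tropomyosins of many cell types, stood at 18.2 against 55.9 FPKM and at 30.5 against 66.4 FPKM, with separate bounds. Among the myosin light chain kinases, Mylk3 made up 87.3% in the control and 95.2% in Rbfox2 OE. There the share of Mylk4 was smaller, at 11.5% and 2.44%, while that of Mylk was larger, at 1.13% and 2.34%.

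**Figure D3:**
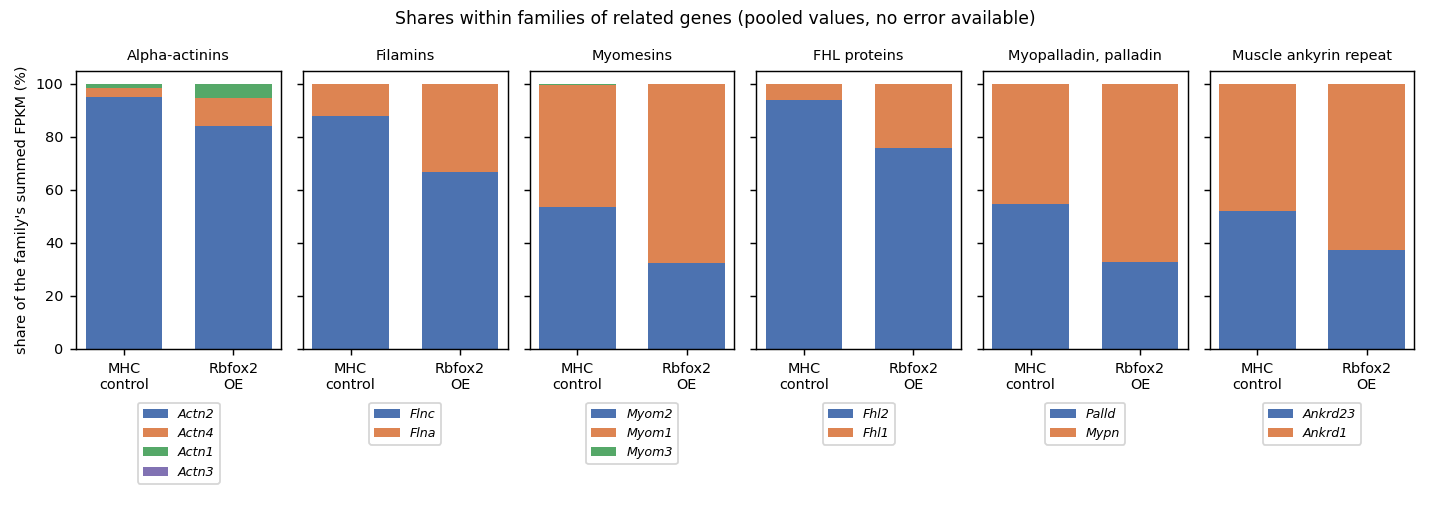
Share of each gene in the summed FPKM of 6 families, in percent, for the MHC control and Rbfox2 OE. The share of Actn2, Flnc, Myom2, Fhl2, Palld and Ankrd23, at the bottom of each bar, is smaller in Rbfox2 OE, and no error is available for pooled values.

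Markers of other cells stood higher in Rbfox2 OE, as the plot of marker lists shows. All 8 fibroblast markers had the higher value there and their summed level was 213 FPKM in MHC cells against 504 FPKM in Rbfox2 OE. The 8 endothelial markers summed to 220 and 387 FPKM, the 8 macrophage and leukocyte markers to 119 and 417 FPKM, and the 8 smooth muscle and pericyte markers to 147 and 328 FPKM. In each of these 4 lists every marker had the higher value in Rbfox2 OE and none was listed at 0. Bounds overlapped, however, for 3 fibroblast, 5 endothelial, 1 macrophage and leukocyte, and 5 smooth muscle and pericyte markers. The 5 markers of red blood cells summed to 56.6 and 295 FPKM. The 5 atrial markers, including Myl7 and Myl4, summed to 240 and 3156 FPKM, of which Nppa alone stood at 118 and 2178 FPKM. Whether these transcripts came from atrial cells or from other cardiomyocytes was not tested. Myl7 and Myl4 are also part of the list of other sarcomere genes below. The 8 skeletal muscle markers summed to 1.30 and 1.45 FPKM, with Myog and Pax7 listed at 0 in both groups and Myh1, Myh2 and Myh4 at 0 in 1 of them. The 9 cardiomyocyte markers outside the 43 that were measured in both groups summed to 49120 and 30686 FPKM. The part that other cells have in the values of Tpm2, Pdlim3, Actn1, Flna, Tpm3 and Tpm4, or in the lower values of sarcomere genes, was not tested.

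**Figure D4:**
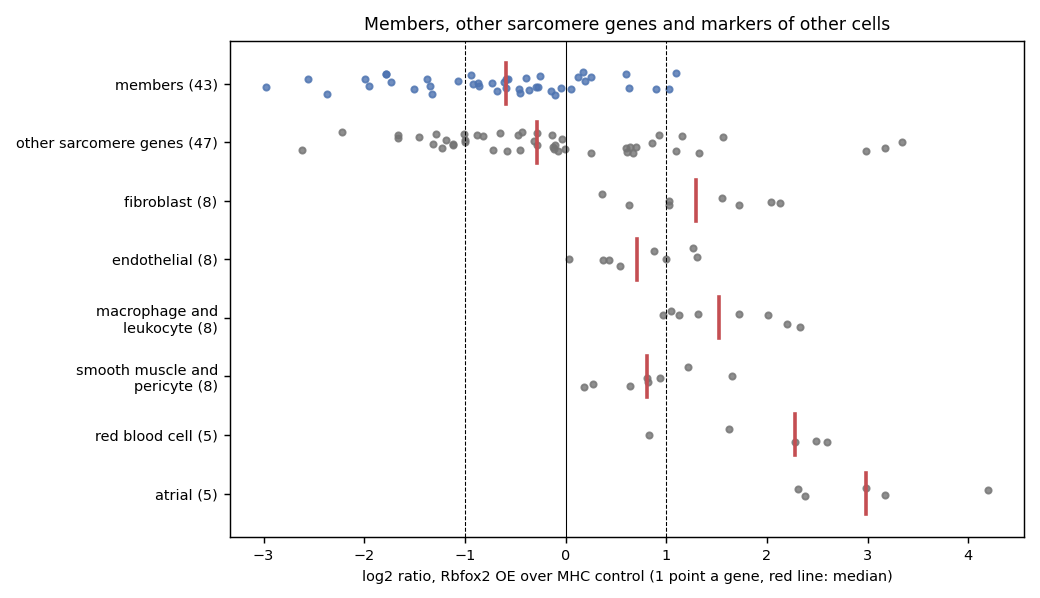
Log2 ratios (Rbfox2 OE over MHC) for the 43 genes, for the other sarcomere genes and for markers of other cells, 1 point a gene, for genes that averaged 1 FPKM or more. Red lines are medians, at -0.59 for the 43 genes and -0.28 for the other sarcomere genes, and every marker list shown lies to the right of 0.

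For comparison, a list of 58 other sarcomere genes was examined, of which 47 averaged 1 FPKM or more. Of these, 12 were at least 2-fold lower and 7 at least 2-fold higher, bounds were separate for 9 lower and 7 higher genes, and the median log2 ratio was -0.28. This list ranged more widely than the 43. Its lowest genes with separate bounds were Mylk4, a muscle kinase (29.9 against 5.62 FPKM), Pdlim4 (11.8 against 3.02 FPKM), Tmod4 (13.0 against 4.10 FPKM) and Smyd2 (54.8 against 21.8 FPKM). The highest were the fetal or skeletal actin Acta1 (137 against 1399.8 FPKM, with a lower bound of 0 in the control), the atrial light chains Myl4 (51.0 against 467 FPKM) and Myl7 (49.0 against 395 FPKM), and Tpm3. The largest ratio among the 43 genes was the 2.14-fold of Bag3, beside 3.07-fold for Tpm3 and 8.07-fold or more for Acta1, Myl4 and Myl7.

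Gene length is a property that the choice of members did not use. The members tended to lie in long genes: 17 of the 43 fell in the last of 4 equal groups of compared protein-coding genes ordered by span, above 57.1 kb. Of these 17, 8 lay 2-fold or more lower (15.9% of all genes in that group) and 0 lay that far higher (4.33%), and their median log2 ratio was -0.94. In the group of shortest span, up to 10.5 kb, the 11 members had a median of 0.05, with 2 lower (Tcap and Hspb7; 6.02% of all genes in that group) and 1 higher (Tpm2; 8.98%). Over all 11093 protein-coding genes the medians were 0.02 in the shortest and -0.22 in the longest group. Over the 43 genes, the correlation of log2 span with the log2 ratio was -0.27 (Pearson) and -0.31 (Spearman), and -0.18 and -0.26 without Fhod3, which spans 424.9 kb. Over all 11093 genes it was -0.18 and -0.15. Without Fhod3 the Pearson value of the members was thus that of all genes, while the Spearman value was more negative (-0.26 against -0.15). These are correlations across genes of the same libraries, given as a description. Exceptions were plain on both sides, since Tcap spans 1.1 kb and was 5.18-fold lower, while Ttn spans 278.6 kb and had the higher value in Rbfox2 OE.

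**Figure D5:**
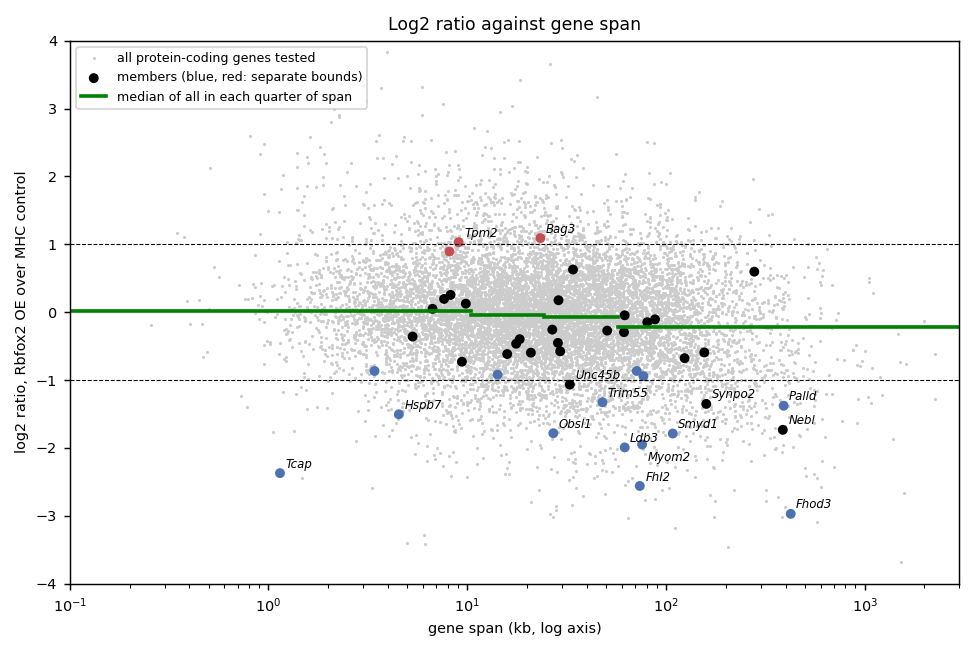
Log2 ratio (Rbfox2 OE over MHC) against gene span in kb on a log axis, for all protein-coding genes compared (grey) and the 43 members (blue and red with separate bounds, black otherwise). Green lines are the medians of all genes in 4 equal groups of span, from 0.02 in the shortest to -0.22 in the longest, members at least 2-fold apart are named, and 10 genes beyond 4 on either side are not shown.

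The members lie on 17 chromosomes. In GENCODE M21 on GRCm38, Fhl2 (ENSMUSG00000008136.14) lies at chr1:43123074-43196984 on the minus strand, Tcap (ENSMUSG00000007877.2) at chr11:98383811-98384953 on the plus strand, Ldb3 (ENSMUSG00000021798.13) at chr14:34526603-34588682 on the minus strand and Bag3 (ENSMUSG00000030847.8) at chr7:128523616-128546981 on the plus strand. All are protein-coding. Of the 17 genes with separate bounds, 10 overlap another annotated gene, and how the authors shared out fragments between such neighbours is not given in the sources used here, so these values are less certain. The 7 without any overlap were Tcap, Ldb3, Hspb7, Lmod3 and Actn2, which were lower, and Tpm2 and Ankrd1, which were higher. Of the 36 overlapping neighbours in the table, 5 reached 5 FPKM in either group: Hspb2 beside Cryab, Krcc1 beside Smyd1, Myl12a beside Myom1, Nisch beside Tnnc1, and Gm42417 beside Ankrd23. Tnnc1 itself was far above Nisch, which stood at 44.7 and 36.4 FPKM. Myl12a, in contrast, stood at 839 FPKM in MHC and 1570 FPKM in Rbfox2 OE. Myom1 lay below it, at 359 and 224 FPKM, so that the value of Myom1 is less certain.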

How the data were processed

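Polyadenylated RNA of cardiomyocytes was sequenced from 4 stranded libraries, 2 per group, per the labels' protocols. The authors deposited 1 table of FPKM values from Cuffdiff, per the file headers, with 1 pooled value, a lower and an upper bound and a status per gene and group. The submitters' processing notes name Cuffdiff 2.2.1, STAR 2.4.2a and the build GRCm38, without their roles; annotation and use of strand are not given in the sources used here. FPKM hold no fragment counts, so depth is unknown and no counting interval was given. Every value and bound in FPKM printed here is the authors'; log2 ratios (1 FPKM added), counts and shares were computed from them with Python 3.11.15 and pandas 2.3.3. Rows sharing a name (110 names) were summed, and the 11697 genes averaging 1 FPKM or more were compared. Replicate spread could not be assessed, so no p-value was computed. Gene spans, transcripts and overlaps came from GENCODE M21 (all 43 identifiers matched, by the longest coding sequence of its basic set). The members, lists and pairs were chosen with earlier results of these data known; the filter at 10 FPKM, the families, motifs and length comparison were chosen after seeing values. Full values are given for members with separate bounds and for related pairs, and the other sarcomere genes named are the 4 lowest and 4 highest with separate bounds. The calculations were tested on simulated data. Alternatives covered pseudocount, filter, fold, scaling, status and mean against median.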

Additional observations from a re-analysis of the deposited data

How the results depend on the processing

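No paired analysis was possible because the values of each group come pooled over its libraries, and for the same reason no library could be left out in turn. The unknown spread between libraries and the unknown depth limit every value. The log2 ratios of single members stayed within the range of their bounds in all 301 recomputed values. That outcome says little about robustness. The filters and the status rule could not change a member's ratio, and the other shifts were small beside most of the ranges. The ratios of Mypn, Xirp2 and Mylk3 changed sign under another scaling. Of 106 recomputed counts and medians of lists, 82 stayed within 1.5 times (counts) or 0.1 (medians). The members at least 2-fold apart were 22 lower and 5 higher at 1.5-fold (22.1% and 16.6% of all genes), and 3 lower and 0 higher at 4-fold; with a pseudocount of 5, 1 was higher. In the other sarcomere genes, 14 were higher at 1.5-fold (16.6% of all genes), and 2 were lower and 3 higher at 4-fold (1.32% and 1.16% of all genes). Rescaling left 9 lower members with separate bounds and gave medians of -0.441 for all members, -0.525 for the thick filament group, -0.588 for the thin filament, -0.432 for the Z-disc, -0.917 for chaperones and ligases, 0.107 for the desmin and LIM group (a change of sign) and -0.139 for the other sarcomere genes. Centring on the median gene turned the desmin and LIM group to 0.017. Means in place of medians were -0.843, -0.514, -0.740, -0.793 and -0.522 for the 5 groups in the same order and -0.138 for the other sarcomere genes, whose median without a filter on low values was -0.110. The rescaled shifts follow from the common factor applied to Rbfox2 OE; other causes were not tested.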
